A study of Mus musculus with 2 samples.

Results

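Intergenic transcript models are read-supported transcripts that lie outside every annotated gene of the mouse genome, and here they were taken from long-read RNA sequencing of gastrocnemius, a calf muscle. A model was included when the deposited quantification table of its library gave it the class Intergenic, and models on spike-in sequences or in a ribosomal RNA region of chromosome 17 were left out, which removed 1 model with 2 reads from replicate 2 and 0 from replicate 1. This gave 6170 models of 169840 in all. Replicate 1 held 1622 of its 79323 models in this class (2.04%, exact Clopper-Pearson 95% interval 1.95 to 2.15) and replicate 2 held 4548 of 90517 (5.02%, 4.88 to 5.17). Models that overlapped on the same strand, within or between the libraries, were joined into 5232 loci.

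Each library was made from 2 µg of total RNA of a male B6CASTF1/J mouse, an F1 hybrid of C57BL/6 and CAST, at 25 days of age, and the labels name no treatment. The only group has biological replicates 1 and 2. The labels number the males separately but list a single donor entry, and each test here sets the reads of 1 library against those of the other, so its p-values and SEs cover counting error only and hold no estimate of the spread between animals. TALON, a long-read annotation program, had placed the reads of each library on GENCODE M21 transcripts or on new models of its own, on the genome build mm10 (GRCm38).

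Transcripts outside annotated genes come from several known sources. Long non-coding RNAs are spliced and capped like messenger RNAs but encode no protein, promoters of coding genes often also start short transcripts in the opposite direction, and RNA can continue past an annotated 3′ end. Processed pseudogenes, copies of messenger RNAs put back into the genome, and short interspersed elements, small tRNA- or 7SL-derived repeats, can also carry RNA or attract reads of a similar sequence.

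The genomic sequence of 16 single-exon loci lay wholly inside the RefSeq promoter windows (GRCm38.p6, 250 bases before to 50 after an annotated start), and the 5 with 2 or more reads are printed in the direction of the locus, so that the letters of the members themselves can be seen. Capitals mark the hexamer AATAAA or its variant ATTAAA, signals that direct cleavage and polyadenylation of messenger RNA, in the last 50 bases. The loci are chr11:80383041-80383279 on the minus strand (2 and 10 reads in replicates 1 and 2), chr3:105053146-105053331 on the plus strand (1 and 2), chr9:72779460-72779644 on the minus strand (0 and 3), chr1:161131511-161131707 on the plus strand (0 and 2) and chr2:140066805-140067005 on the plus strand (0 and 2).
Locus beside Zfp207: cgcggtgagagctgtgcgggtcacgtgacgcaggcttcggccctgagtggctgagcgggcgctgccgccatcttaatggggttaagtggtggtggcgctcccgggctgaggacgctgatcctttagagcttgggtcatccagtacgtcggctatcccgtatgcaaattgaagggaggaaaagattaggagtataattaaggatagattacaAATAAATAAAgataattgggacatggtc
Locus beside Cttnbp2nl: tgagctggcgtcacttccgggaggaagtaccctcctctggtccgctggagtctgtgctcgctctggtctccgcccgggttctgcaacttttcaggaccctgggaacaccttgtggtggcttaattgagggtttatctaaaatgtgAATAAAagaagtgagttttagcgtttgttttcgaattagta
Locus beside Gm27204: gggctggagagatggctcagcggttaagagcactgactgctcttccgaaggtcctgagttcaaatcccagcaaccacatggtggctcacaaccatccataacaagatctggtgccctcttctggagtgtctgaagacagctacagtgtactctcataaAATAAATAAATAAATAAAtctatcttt
Locus beside Klhl20: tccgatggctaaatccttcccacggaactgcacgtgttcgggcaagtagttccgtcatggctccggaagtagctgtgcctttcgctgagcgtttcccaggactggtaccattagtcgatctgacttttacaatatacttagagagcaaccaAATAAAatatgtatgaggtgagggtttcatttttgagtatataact
Locus beside Tasp1: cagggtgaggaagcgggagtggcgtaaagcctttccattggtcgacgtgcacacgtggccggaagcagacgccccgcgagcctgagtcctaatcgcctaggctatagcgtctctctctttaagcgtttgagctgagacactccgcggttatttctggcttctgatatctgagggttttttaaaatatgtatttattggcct

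Of the 16 loci, 12 held a hexamer in their last 50 bases, against 3.04% of 393804 stretches of 50 bases cut from both strands of all 32817 windows. The locus beside Zfp207 held 2 overlapping copies, the last ending 18 bases before the locus did, and the locus beside Tasp1 held neither hexamer. The loci beside Zfp207, Cttnbp2nl, Klhl20 and Tasp1 ran away from the start of their neighbour on the opposite strand and shared its boundary base. Since the windows were set at gene starts, that arrangement follows from which loci could be read. The locus beside Gm27204 differed from these. Its letters resemble those of the B2 family of short interspersed elements (background knowledge, since no repeat annotation was used), and its first 30 bases also stood in 65 of 141767 GENCODE M21 transcripts in the sense direction.

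The libraries held 1292409 reads in replicate 1 and 1703457 in replicate 2, of which 1238920 and 1653293 lay on mouse models outside the ribosomal RNA region and form the denominator of all levels in CPM (reads per 1000000 such reads). All 5 muscle fibre markers checked (Acta1, Ckm, Myh4, Tnnt3 and Mylpf) were abundant, with a summed level of 181438 and 169687 CPM. The 5 fibroblast markers summed to 4503 and 861 CPM, the 3 Schwann cell markers to 140 and 462 CPM, the 3 erythroid markers to 333 and 506 CPM, and the 4 immune, 4 endothelial and 3 adipocyte markers to between 16.9 and 58.9 CPM in either library. The 3 neuronal markers stood at 0.807 and 1.21 CPM. Whether cell content had a part in the differences between the libraries given next was not tested, and in bulk RNA fewer cells of a type cannot be told apart from less RNA per cell.

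Intergenic models took a small and unequal part of the reads. They held 3358 reads in replicate 1, which is 0.271% of its mouse reads (95% interval 0.262 to 0.280), and 15860 reads in replicate 2, which is 0.959% (0.944 to 0.974). In CPM this was 2710 and 9593, with a mean of 6152 ± 4867 (SD, n = 2), so the libraries differed by more than their mean. The intervals cover counting error only, here and throughout. Most models rested on a single read, 1247 of 1622 (76.9%) and 3003 of 4548 (66.0%), and the 10 models with most reads held 25.0% and 31.1% of all intergenic reads. The antisense class, the other class of new genes, held 19179 and 85460 reads and differed between the libraries in the same direction.

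The models were mainly unspliced. In replicate 1, 192 models had 2 or more exons (11.8%, 10.3 to 13.5) and carried 375 reads (11.2% of intergenic reads, 10.1 to 12.3). In replicate 2, 322 models were spliced (7.08%, 6.35 to 7.86) and carried 619 reads (3.90%, 3.61 to 4.22). The mean spliced share was 9.46% ± 3.36 of models and 7.54% ± 5.14 of reads (SD, n = 2). Among annotated transcripts 93.2% and 90.9% of models were spliced, and among antisense models 5.72% and 3.37%. Most spliced intergenic models had 2 exons (125 and 201), 41 and 78 had 3 exons, and none had more than 6. Their introns had a median length of 1671 and 1306.5 bp. The plus strand held 50.1% and 50.2% of models.

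Lengths fell into a sharp peak and a broad shoulder. The median model length was 528.5 nt in replicate 1 and 216.5 nt in replicate 2. Models of the other classes were also shorter in replicate 2, with medians of 1478 and 477 nt for antisense models, 1048.5 and 440 nt for genomic models and 2354 and 1962 nt for annotated transcripts, and the part of read length or RNA quality in the intergenic differences was not tested. The most common length of a single-exon model was 177 nt in both libraries, found in 41 and 151 models. A window from 160 to 200 nt held 340 of 1430 single-exon models in replicate 1 (23.8%, 21.6 to 26.1) and 1409 of 4226 in replicate 2 (33.3%, 31.9 to 34.8), while the equally wide windows from 100 to 140 nt and from 220 to 260 nt held 45 and 50 models in replicate 1 and 274 and 201 in replicate 2. The peak carried 17.5% of single-exon intergenic reads in replicate 1 and 50.9% in replicate 2. In replicate 2, 2 loci at copies of Gapdh, described further on, held 3020 of the 7756 reads of the peak (38.9%), and without the 16 loci at such copies the peak carried 37.7% there and 17.5% in replicate 1. Single-exon antisense models had 4.37% and 9.58% of their number in the same window, genomic models, which are unspliced or partly spliced reads over genes, 4.52% and 9.67%, and annotated transcripts 0.926% and 1.20%. In addition, 10 and 12 intergenic models were 1 nt long.

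**Figure D1:**
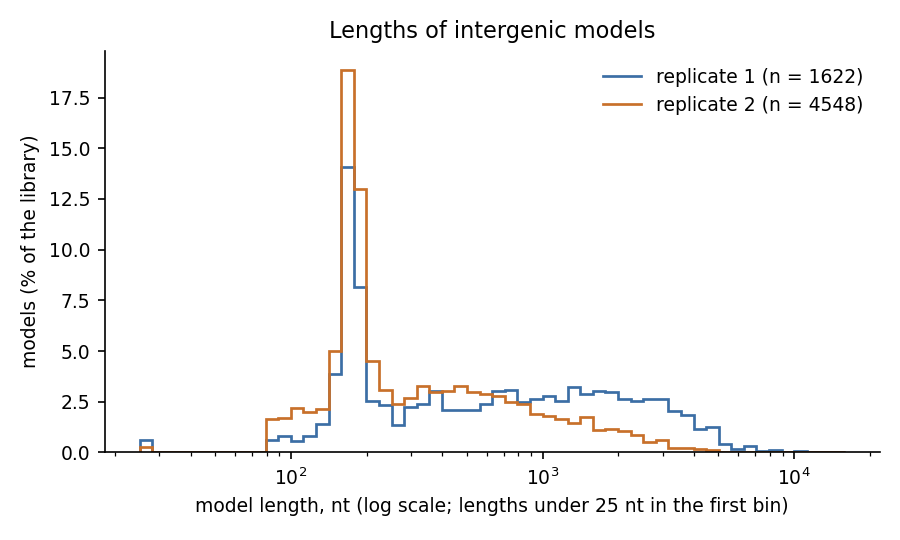
Share of each library's intergenic models (vertical axis, percent) by model length (horizontal axis, nt, log scale) for replicate 1 (1622 models) and replicate 2 (4548 models). Both libraries peak near 177 nt, and replicate 1 has the larger share of models above 1000 nt.

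Loci of 160 to 200 nt also stood apart in where they lay. Their median distance to the nearest annotated gene was 5336 bp against 2074 bp for the other single-exon loci, and 49 of 1490 (3.29%, 2.44 to 4.32) shared a boundary base with a gene against 710 of 3305 (21.5%, 20.1 to 22.9). They showed nearly equal shares in the 4 possible arrangements towards the nearest gene, from 23.8% (downstream on the opposite strand) to 26.0% (upstream on the opposite strand). The other single-exon loci ranged from 18.3% (upstream on the same strand) to 31.5% (downstream on the same strand). Where a model was given a gene boundary as an end, as described further on, that boundary also set its length. Length class is thus not independent of boundary sharing, nor of the distances and arrangements that include such loci. The part of this in the differences was not tested. Of the 160 to 200 nt loci of replicate 1, 65.4% (60.1 to 70.4) were found again in replicate 2, against 47.6% (44.6 to 50.7) of the others, while of those of replicate 2, 16.2% (14.3 to 18.3) and 18.2% (16.8 to 19.7) were found in replicate 1. Among loci with 1 read the same shares were 58.1% against 37.4% from replicate 1 and 6.81% against 9.28% from replicate 2. The length of a locus was its span over both libraries. A short model that recurred with a much longer one was therefore counted among the others, and the part of this in these shares was not tested. Of the 16 loci whose sequence was read, 6 belong to this length class, among them those beside Cttnbp2nl (186 bases), Gm27204 (185) and Klhl20 (197) printed above.

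Recurrence in the other library was read as the share of a library's loci with an intergenic model of the other library on the same strand. In all, 853 of 5232 loci recurred. They were 53.1% of the 1607 loci of replicate 1 (50.6 to 55.5) and 19.0% of the 4478 loci of replicate 2 (17.9 to 20.2), and they held 74.3% and 39.4% of the intergenic reads. A locus was called spliced where a model of either library was. So classed, spliced loci recurred in 127 of 210 cases from replicate 1 (60.5%, 53.5 to 67.1) and in 127 of 345 from replicate 2 (36.8%, 31.7 to 42.1), a mean of 48.6% ± 16.7 (SD, n = 2), and single-exon loci in 726 of 1397 (52.0%, 49.3 to 54.6) and 726 of 4133 (17.6%, 16.4 to 18.8), a mean of 34.8% ± 24.3. That class favours recurring loci, since 18 of the 210 and 24 of the 345 were spliced through the other library's model alone and recurred by construction. With the class taken from a library's own models, spliced loci recurred in 109 of 192 cases (56.8%, 49.4 to 63.9) and 103 of 321 (32.1%, 27.0 to 37.5), a mean of 44.4% ± 17.5. Single-exon loci then recurred in 744 of 1415 (52.6%, 49.9 to 55.2) and 750 of 4157 (18.04%, 16.9 to 19.2), a mean of 35.3% ± 24.4. The recurring loci are the same in both directions. These SDs therefore follow the unequal numbers of loci in the libraries and do not measure a spread between replicates. The intervals of the spliced and single-exon shares are apart for replicate 2 and overlap for replicate 1. Loci were joined by overlap of whole spans, introns included. The median span was 4893 and 3489.5 bp for spliced models and 421 and 200 bp for single-exon models in replicates 1 and 2. A longer span has more room to overlap another model, and its part in the difference between the classes was not tested.

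Recurrence was higher for loci with more reads. With the class from a library's own models, it was 9.00% (7.94 to 10.1) at 1 read for single-exon loci of replicate 2, 24.0% (21.4 to 26.7) at 2 to 4 reads, 48.6% (42.3 to 54.9) at 5 to 9 reads and 76.0% (69.0 to 82.0) at 10 or more. For spliced loci of replicate 2 the same steps gave 23.5% (18.4 to 29.2), 24 of 48 (35.2 to 64.8%), 8 of 10 (44.4 to 97.5%) and 12 of 12. The intervals of spliced and single-exon loci of replicate 2 are apart at 1 read and at 2 to 4 reads. Those of replicate 1 overlap, with 46.7% (38.6 to 55.0) of spliced and 43.4% (40.4 to 46.4) of single-exon loci found again at 1 read. Spans were not matched between the classes at any step. Few loci were present under another class, since a further 3.24% of replicate 1 loci and 3.73% of replicate 2 loci were overlapped by 20 or more bases of a model of another class in the other library.

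**Figure D2:**
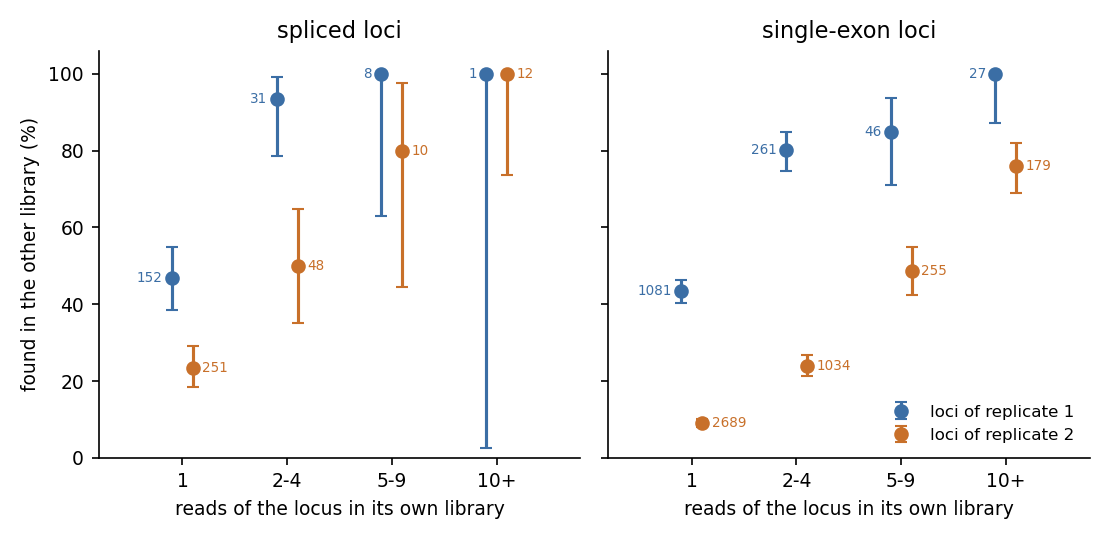
Share of loci found in the other library (vertical axis, percent, with exact 95% intervals) by the reads of the locus in its own library (horizontal axis), for spliced loci (left) and single-exon loci (right), classed by the models of that library. The small numbers give the loci behind each point, and for replicate 2 the share goes from 23.5% to 12 of 12 for spliced loci and from 9.00% to 76.0% for single-exon loci.

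Whole intron chains were also compared. Of 192 intron chains in replicate 1, 48 (25.0%, 19.0 to 31.7) were found base for base among the intergenic models of replicate 2, which is 14.9% (11.2 to 19.3) of the 322 chains there, with a mean of 19.95% ± 7.14 (SD, n = 2). The 48 chains are the same in both shares, so this SD too follows the unequal numbers of chains. Among models with 2 or more reads the mean was 44.53% for chains, against 49.49% for spliced loci. Counting chains given any class in the other library, the shares were 33.9% and 19.6%. The 3′ ends of the leading models lay within 10 bp of each other in 666 of 853 recurring loci (78.1%, 75.1 to 80.8) and the 5′ ends in 507 (59.4%, 56.1 to 62.8). Single-exon loci had 81.3% of 3′ ends and 63.1% of 5′ ends within 10 bp, and spliced loci 59.8% and 38.6%. Of the 849 recurring loci on sequences with an annotated gene, 170 (20.0%, 17.4 to 22.9) shared a boundary base with a gene. Where the models of both libraries were given the same boundary as an end, agreement at that end was fixed beforehand. These loci were not set apart in the shares above.

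Distances were taken to the nearest annotated gene of any type on either strand. Over the 5220 loci on sequences with any annotated gene, the median distance to the nearest gene was 3170 bp, 3911 (74.9%, 73.7 to 76.1) lay within 10 kb and 222 (4.25%, 3.72 to 4.84) lay beyond 50 kb. The per-library medians were 2667 and 3188 bp, and 75.8% and 75.1% of loci lay within 10 kb. The mean of the library medians, 2927 bp, became 5166 bp with protein-coding genes only, and 9860 bp with 50.21% of loci within 10 kb when only genes on the same strand were counted. Spliced loci were farther out, with a median of 6178 bp and 57.9% (53.0 to 62.6) within 10 kb, against 3002 bp and 76.4% (75.2 to 77.6) for single-exon loci. Within 10 kb, 97 of 246 spliced loci (39.4%, 33.3 to 45.8) lay upstream of the gene on the opposite strand, running away from its start, compared with 865 of 3665 single-exon loci (23.6%, 22.2 to 25.0). Without loci that share a boundary base with the gene, the shares were 34 of 176 (19.3%, 13.8 to 25.9) and 595 of 2906 (20.5%, 19.0 to 22.0). Downstream on the same strand lay 20.3% of all spliced and 30.7% of all single-exon loci within 10 kb. Without loci that share a boundary base, these shares were 44 of 176 (25.0%, 18.8 to 32.1) and 802 of 2906 (27.6%, 26.0 to 29.3), with overlapping intervals.

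The ends of many models coincided exactly with an annotated gene boundary. The 5′ end did so in 229 of 1616 models of replicate 1 (14.2%, 12.5 to 16.0) and in 536 of 4538 of replicate 2 (11.8%, 10.9 to 12.8), yet only 0 and 1 models had a 5′ end between 1 and 49 bp from a boundary. Counts per 100 bp then stayed at or below 40 up to 499 bp and were 35 and 97 between 500 and 599 bp. For 3′ ends the numbers were 58 and 159 on the boundary, 0 and 1 at 1 to 49 bp, 14 and 60 at 200 to 299 bp and 44 and 133 at 300 to 399 bp. No model overlapped a gene by more than that 1 base. Models with such an end held 24.1% and 37.7% of intergenic reads. The tables give the ends of models and not those of reads, so where the reads themselves ended near these boundaries cannot be seen.

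**Figure D3:**
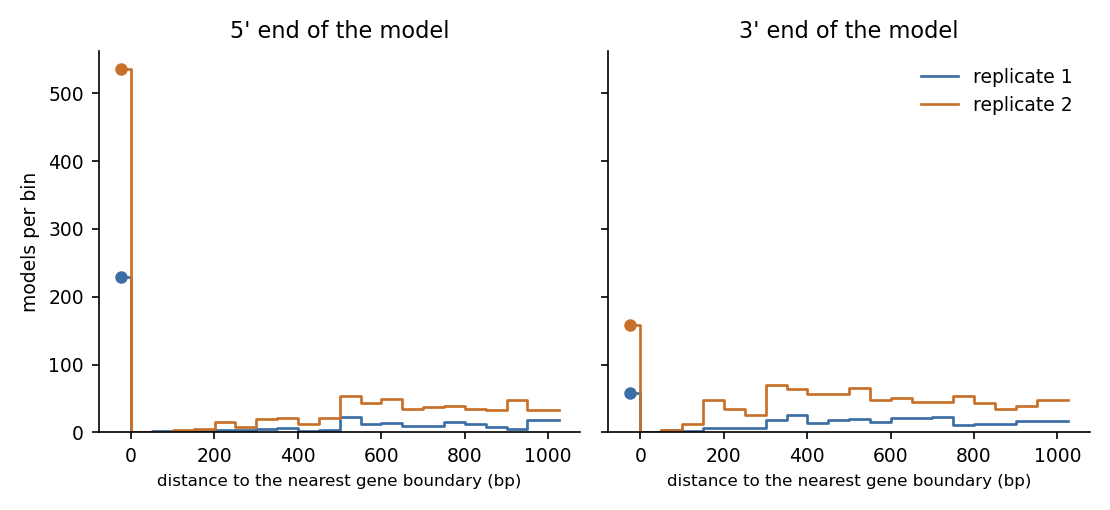
Number of intergenic models by the distance of their 5′ end (left) or 3′ end (right) to the nearest annotated gene boundary (bp), for replicates 1 and 2. The dot, drawn just left of 0, is the count at distance 0 (229 and 536 for 5′ ends, 58 and 159 for 3′ ends) and the line counts models per 50 bp beyond it.

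In all, 829 loci (15.9% of 5220, 14.9 to 16.9) shared a boundary base with a gene, and they fell mainly into 2 arrangements. In 333 (40.2%) the locus began at the start of a gene and ran away from it on the opposite strand, as the loci beside Zfp207 and Klhl20 printed above do, and 63 of the 70 spliced loci among the 829 were of this kind. In 330 (39.8%) the locus began at the 3′ end of a gene on the same strand and continued downstream. Another 116 loci ended at the 3′ end of a gene on the opposite strand and 50 ended at the start of a gene on the same strand. Whether strand was read from the library or from the alignment is not named in the sources used here.

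The 330 downstream continuations held 198 at protein-coding genes, 104 at pseudogenes and 28 at other genes. Models that began at coding genes carried 148 reads in replicate 1 and 516 in replicate 2 (4.41% and 3.25% of intergenic reads). The largest followed Kcna7, a voltage-gated potassium channel, with 0 and 43 reads beyond the gene and 29 and 3 reads on it. Next came Myl10, a regulatory myosin light chain, with 2 and 34 beyond and 2 and 3 on the gene, and Kcnj12, an inward rectifier potassium channel, with 0 and 34 beyond and 66 and 32 on the gene. Gm7075 had 0 and 33 beyond and 21 and 12 on the gene, and Zbtb16, a zinc-finger transcription factor, 25 and 0 beyond and 15 and 12 on the gene. These are the 5 with most reads beyond the gene, chosen after the values were seen.

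The continuations at pseudogenes had far fewer reads in replicate 1 than in replicate 2. Models that began there had 66 reads in replicate 1 (1.97% of intergenic reads, 1.52 to 2.49) and 3907 in replicate 2 (24.6%, 24.0 to 25.3), on 21 and 95 of the 104 pseudogenes. Of the 104, 99 matched a protein-coding GENCODE M21 transcript over 80% of their length at 80% identity or more, with a median identity of 99.2%. In 86 of the 99, the annotated pseudogene ended within 3 nt of the end of the matching coding sequence. The start given to the model thus lay at or near the end of the parent's coding sequence. In 59 of the 99 the length of the leading model was within 50 nt of what remains of the parent transcript after that point. That start is the annotated boundary, and the length is counted from it, so where the reads themselves began cannot be seen. The 99 pseudogenes had 78 different parents.

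Gapdh, the glycolytic enzyme glyceraldehyde-3-phosphate dehydrogenase, was the parent of 16. The intergenic loci at the ends of these 16 copies had 0 reads in replicate 1 and 3228 in replicate 2, which was 20.4% of all intergenic reads there, and all 16 had reads in replicate 2. Replicates 1 and 2 placed 5337 and 3521 reads on the annotated copies themselves, and 54 and 113 on the Gapdh gene. Copies and loci together came to 4308 CPM in the first library and 4082 in the second, a difference smaller than that of either alone. The loci thus took 0 of 5337 reads in replicate 1, which allows a share of up to 0.0562%, and 47.8% (46.6 to 49.0) in replicate 2. Leading models at these loci were 179 to 203 nt long, and the Gapdh transcript continues for 178 nt after its coding sequence.

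The sequences of Gapdh and its copies show how much of them is shared. The last 60 coding bases of Gapdh (chr6:125161715-125166467, minus strand) are the same in the 8 copies of full coding length, 1002 nt. Gm12671 and Gm10359 have 0 differences from Gapdh over all 1002 bases. Gm12033, Gm5559 and Gm12537 have 1 each, Gm2574 has 3, Gapdh-ps15 has 5 and Gm10481 has 9, and in none of them does the last difference lie closer than 297 bases to the end. Windows of 60 bases around the single difference of Gm12033 (bases 474 to 533 of the coding sequence) and of Gm5559 (bases 355 to 414) are printed beside those of Gapdh, with the differing base in capitals.
Gapdh, last 60 coding bases: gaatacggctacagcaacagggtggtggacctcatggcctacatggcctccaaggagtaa
Gm12033: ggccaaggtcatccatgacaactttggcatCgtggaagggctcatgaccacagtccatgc
Gapdh: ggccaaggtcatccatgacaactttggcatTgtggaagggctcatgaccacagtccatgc
Gm5559: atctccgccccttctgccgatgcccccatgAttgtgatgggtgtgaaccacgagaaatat
Gapdh: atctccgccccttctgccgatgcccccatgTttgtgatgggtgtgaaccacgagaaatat

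Reads at such near-identical copies are uncertain as to their source. The copies did not divide reads with their loci in 1 proportion. Gm12671 (chr4:91851668-91852669) had 2386 and 919 reads on the copy and 0 and 1982 on the locus at chr4:91851488-91851668. Gm12033 (chr11:20335012-20336013) had 1579 and 941 on the copy and 0 and 1038 on the locus at chr11:20334834-20335012. Gm5559 (chr5:95861714-95862715) had 1277 and 1519 on the copy, and its locus had 0 and 2. Reads at the first 2 copies were thus divided between copy and locus in replicate 2, and those at Gm5559 were almost all on the copy in both libraries. Other parents gave smaller loci. Gm10221, a copy of the ATP synthase subunit gene Atp5l, had 0 and 88 locus reads, Gm10039, a copy of Atp5g1, had 0 and 78, and Tpt1-ps3, a copy of the translationally controlled tumour protein gene, had 13 and 47.

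**Figure D4:**
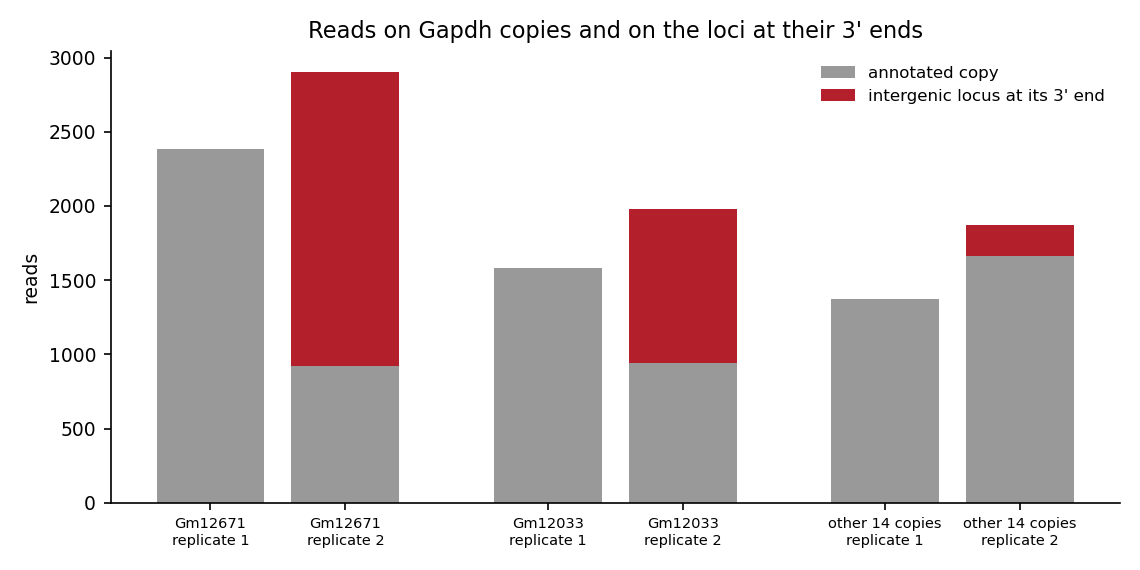
Reads (vertical axis) on annotated Gapdh copies (grey) and, stacked on them, on the intergenic loci at their 3′ ends (red), for Gm12671, Gm12033 and the other 14 copies in replicates 1 and 2. The red part is 0 in replicate 1 and 1982 reads for Gm12671 and 1038 reads for Gm12033 in replicate 2.

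Some loci lay beside genes of the contractile and energy machinery. Of 49 genes of muscle structure and energy supply, 12 (24.5%) had an intergenic locus within 10 kb for which they were the nearest gene, against 14.3% of the 15619 annotated genes with reads and 5.98% of all 55536 genes. Their 19 loci had 44 and 145 reads, and 6 of the genes had a locus seen in both libraries. Actn2, which encodes the alpha-actinin of the Z-disc, had 3 loci with 19 and 78 reads, and the gene itself stood at 2203 and 1500 CPM. Slc25a4, the ADP/ATP carrier of muscle mitochondria, had 3 loci with 14 and 36 reads. Myoz1, a Z-disc protein that binds calcineurin, had 2 loci with 3 and 12 reads, both downstream on the same strand, and Ttn, the giant sarcomere spring protein, had 1 with 2 and 6. Acta1, Ckm, Myh4, Mylpf and Atp2a1 were among the genes of the list with no such locus. The share of 12 in 49 was not tested against the others, and the genes were not matched for level.

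The libraries were compared locus by locus with a two-sided Fisher's exact test on reads, adjusted by the Benjamini-Hochberg method over all annotated genes and loci with 10 or more reads in sum. The test compares 2 libraries of 1 group beyond counting error, and no conditions. Over all 8927 features tested, 44.4% passed the adjusted threshold of 0.05, 16.6% higher in replicate 2 and 27.7% lower. Of the 5232 loci, 238 had enough reads, and of these 122 passed, 116 higher in replicate 2 and 6 higher in replicate 1. Of the 8689 genes, 3839 passed, 1370 higher in replicate 2 and 2469 lower. The median log2 ratio of replicate 2 to replicate 1, on the scale log2(CPM + 1), was 1.76 for these loci and -0.33 for the genes. Against scaling by the summed reads of annotated genes and loci, TMM raised the log2 ratio by 0.26 and DESeq2 size factors by 0.36. These shifts hold before 1 is added to the CPM, and that sum is not the CPM denominator used above. With TMM and DESeq2 scaling, 146 and 147 loci were higher in replicate 2, and 6 were lower under each.

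A locus could reach the minimum through 1 library alone, so these counts describe the tested loci and not all 5232. Of the 238 loci, 168 had 10 or more reads in replicate 2 and fewer in replicate 1, and 108 of these were higher in replicate 2. Another 5 had 10 or more in replicate 1 and fewer in replicate 2, and 3 of them were lower there. Of the 23 loci with 10 or more reads in each library, 8 were higher in replicate 2, 3 lower and 12 not past the threshold. Among the 26 tested loci that held a pseudogene continuation, 22 were higher in replicate 2 and 0 lower, and among the other 212, 94 were higher and 6 lower. These counts take all reads of a locus, also those of models that do not touch the pseudogene.

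**Figure D5:**
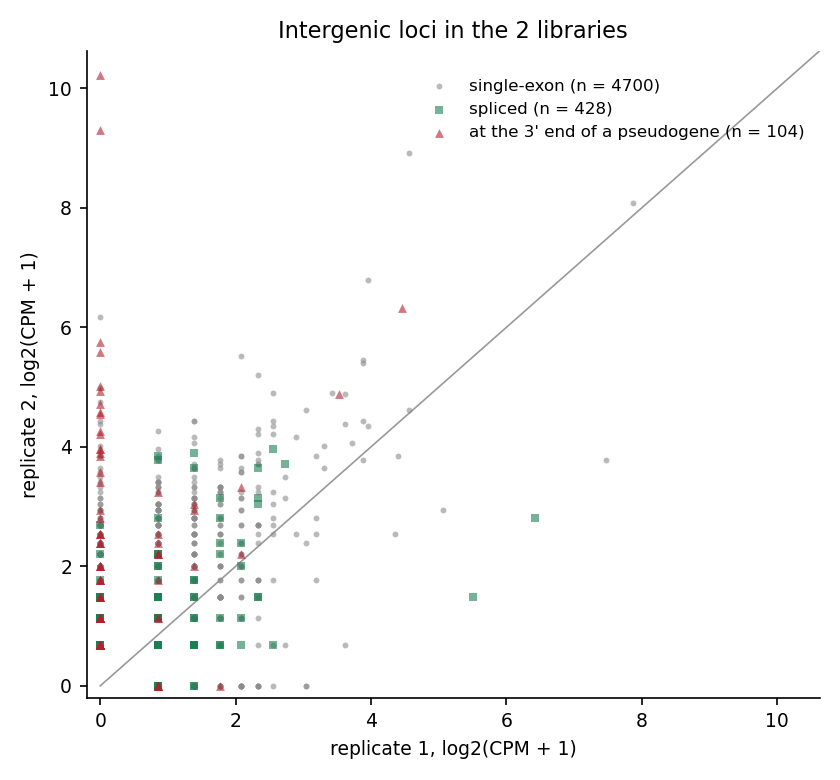
Level of each of the 5232 intergenic loci in replicate 1 (horizontal axis) and replicate 2 (vertical axis), both as log2(CPM + 1), with the line of equal level. Squares are spliced loci (428), triangles loci with a model that begins at the 3′ end of a pseudogene (104) and circles the other single-exon loci (4700), and the 2 uppermost triangles at 0 on the horizontal axis are the loci of Gm12671 and Gm12033.

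The 10 loci with the highest mean level in both libraries were led by chr7:28187294-28189071 on the minus strand. It had 290 reads in replicate 1 and 446 in replicate 2, or 234 and 270 CPM (mean 252 ± 25.2, SD, n = 2), and was the only one of the 10 that did not pass the test (log2 ratio 0.20 ± 0.11 SE, adjusted p = 0.12 in Fisher's exact test). It is a single exon, and its 3′ end lies on the 3′ boundary of Dyrk1b, a protein kinase gene of the opposite strand. The leading models of both libraries ended on that boundary base, so their agreement at the 3′ end cannot be told apart from the placing of ends on boundaries. In the RefSeq annotation the locus overlapped Dyrk1b, on the opposite strand.

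The next locus, chr15:103619060-103619240 on the plus strand, had 28 and 795 reads (22.6 and 481 CPM, log2 ratio 4.35 ± 0.28 SE, adjusted p = 6.4e-150 in Fisher's exact test). It spans 181 bases and lies 30552 bp from the nearest gene, the lincRNA Gm49272. Its leading models ended at the same base in both libraries and were 118 nt and 181 nt long. The list held 3 more short loci. The 192-base locus at chr4:148590382-148590573, 930 bp upstream of the spermidine synthase gene Srm on the opposite strand, had 18 and 182 reads (adjusted p = 1.6e-24 in Fisher's exact test). The 179-base locus at chr7:126643199-126643377 had 17 and 71 reads, and the 131-base locus at chr13:12266417-12266547 had 17 and 68. The last lies 2879 bp downstream of Actn2 on the same strand. In replicate 1 another 33 reads at this place were classed as incomplete matches of Actn2 transcripts, against 0 in replicate 2. The sums over all classes there were 50 and 68 reads, and the test took the intergenic reads only.

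Of the 10 loci, 3 were higher in replicate 1. A 4776-base single-exon locus at chrY:67834525-67839300 on the minus strand had 218 and 21 reads (176 and 12.7 CPM, log2 ratio -3.69 ± 0.33 SE, adjusted p = 2.8e-54 in Fisher's exact test), with leading models that differed by 3 bases at the 3′ end. A locus at chrX:9328974-9332626 on the minus strand, spliced in replicate 1 only, had 105 and 10 reads. Its log2 ratio was -3.60 ± 0.47 SE (adjusted p = 2.2e-26 in Fisher's exact test). The 105 reads of replicate 1 formed a chain of 2 exons, and the 10 of replicate 2 a single exon of 490 nt. At the same place and strand, 2 further reads in replicate 1 and 185 in replicate 2 had other classes, those of replicate 2 under the pseudogene Gm6829, so the sums over all classes were not lower in replicate 2. The locus at chr4:133096298-133101553 on the plus strand had 55 and 3 reads (log2 ratio -4.01 ± 0.80 SE, adjusted p = 5.9e-16). Its 55 reads of replicate 1 formed a single exon of 5256 bases, and the 3 of replicate 2 a chain of 2 exons between nearly the same ends. With 1 and 9 reads of the genomic class at the same place, the sums were 56 and 12. The others of the 10 touched pseudogenes, at chr12:24637962-24638669 beside Gm6969 (26 and 131 reads) and at chr6:85844459-85845283 beside Ptges3-ps (4 and 74 reads). At Gm6969 only the model of replicate 1 reached the pseudogene. The 131 reads of replicate 2 lay on a 128 nt model at chr12:24638003-24638130, apart from it.

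The tested loci included 43 with no read in replicate 1 and 0 with none in replicate 2. Against the limit that a count of 0 allows, taken as 3 reads in replicate 1, the loci of Gm12671 and Gm12033 were at least 495-fold and 259-fold higher in replicate 2. With the reads on the copies included, however, the sums were 2386 and 2901 reads for Gm12671 and 1579 and 1979 for Gm12033. The next locus was chr3:95029398-95032343, downstream of the proteasome gene Psmd4 on the opposite strand, with 0 and 117 intergenic reads, but 11 reads of replicate 1 at this place were classed antisense. The leading loci seen in replicate 1 alone had far fewer reads. The locus at chr13:100589006-100592402, downstream of the tricellulin gene Marveld2, had 9 and 0. The locus at chr16:94526830-94527382 had 9 and 0, but replicate 2 had 74 antisense reads there. A mitochondrial locus at chrM:15422-16294 had 6 and 0, with 39 antisense reads in replicate 2.

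Among spliced loci, the first 2 by reads were those on chromosomes X and 4 above, spliced only in replicate 1 and only in replicate 2. The other 6 had 22 to 30 reads in sum and more in replicate 2. A 2-exon locus at chr9:97150648-97157802 had 6 and 24 reads (adjusted p = 0.036 in Fisher's exact test) and lay 21377 bp from the nearest gene. A 3-exon locus at chr5:111490900-111492383 had 7 and 20 (adjusted p = 0.15), and another at chr6:14608312-14611919 had 5 and 19 (adjusted p = 0.077), both by the same test and neither past its threshold. These 2 overlapped the RefSeq genes Gm36149 and Gm38768, which are not in GENCODE M21, and had the same 3′ ends in the 2 libraries to within 1 base. The locus at chr18:68342951-68343988, 505 bp downstream of the melanocortin receptor gene Mc5r, had 2 and 23 reads. The locus at chr5:139485053-139512000, upstream of the zinc-finger gene Zfand2a, had 1 and 22, joined by an intron into 2 short exons of 160 nt in sum. The last, at chrX:73670357-73673150, began at the start of the creatine transporter gene Slc6a8 on the opposite strand. It had 1 and 21 reads, the 1 of replicate 1 on a single-exon model. Another 20 and 14 reads there fell under other classes of new genes.

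A second annotation covered part of the spliced loci. RefSeq genes with a known strand overlapped 128 of 428 spliced loci (29.9%, 25.6 to 34.5) on the same strand by more than 1 base, and 120 of these carried a symbol absent from GENCODE M21. For single-exon loci the number was 400 of 4804 (8.33%, 7.56 to 9.14), of which 148 had such a symbol. A model of 45 spliced loci (10.5%, 7.77 to 13.8) began inside a RefSeq promoter window on the same strand, at a median of 38 bp from the RefSeq start in either direction, against 22 single-exon loci (0.458%, 0.287 to 0.693). The strand was known only for genes in the promoter table, and 484 loci touched RefSeq genes without it.

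The promoter windows of Gm36149 and Gm38768 show where the 2 named loci of this kind began. Capitals run from the first base of the model nearest to the RefSeq start (base 251 of the window) to the end of the window, chr5:111490630-111490929 and chr6:14608201-14608500, both on the plus strand.
Gm36149: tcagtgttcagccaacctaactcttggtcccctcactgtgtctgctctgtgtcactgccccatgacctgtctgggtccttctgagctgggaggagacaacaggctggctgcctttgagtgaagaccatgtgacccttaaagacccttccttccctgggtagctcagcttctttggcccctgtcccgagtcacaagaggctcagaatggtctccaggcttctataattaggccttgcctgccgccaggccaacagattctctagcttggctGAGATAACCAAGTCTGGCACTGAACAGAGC
Gm38768: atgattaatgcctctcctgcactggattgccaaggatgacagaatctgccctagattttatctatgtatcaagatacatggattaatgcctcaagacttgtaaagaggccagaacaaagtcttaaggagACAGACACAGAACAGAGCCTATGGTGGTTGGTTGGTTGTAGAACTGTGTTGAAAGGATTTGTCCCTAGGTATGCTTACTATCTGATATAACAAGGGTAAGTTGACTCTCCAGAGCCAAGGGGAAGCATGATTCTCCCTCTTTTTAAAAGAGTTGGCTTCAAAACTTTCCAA
The Gm36149 model began 20 bases inside the RefSeq transcript and the Gm38768 model at -121 from the RefSeq start. Searched on both strands, neither window held TATAAA, found in 13.6% of all 32817 windows. Neither held the letters CCAAT, found in 37.4% of windows, or GGGCGG, found in 35.6%. The E-box letters CANNTG, bound by myogenic and many other factors, occurred at 1 place in the Gm36149 window, with its first base at -125 from the RefSeq start, and not in the Gm38768 window, against 72.3% of all windows.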

How the data were processed

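Long-read RNA-seq of 2 libraries of 1 group was analysed. The authors deposited, for each library, a table of raw read counts per transcript model with its class, exon number and length, and an annotation with the models' positions on mm10, per the file headers. The aligner and tool versions are not named in the sources used here. Depth is unequal (totals in the report), and all intervals are exact Clopper-Pearson intervals at 95%. A count of 0 was given a limit of 3 counts. Loci were joined by overlaps of whole spans, introns included, of 1 bp or more, and another class was called present at an overlap of 20 bp. Genes and loci of at least 10 reads in sum were tested with Fisher's exact test and Benjamini-Hochberg adjustment at 0.05, with log2 ratios of CPM + 1. On simulated data for the 8927 features of this comparison, with counting error alone and 200 features changed 4-fold, the test called 79% of the changed and 0.0475% of the other features. Tools were Python 3.11.15, numpy 2.4.6, pandas 2.3.3 and scipy 1.17.1, with TMM from edgeR 4.0.16 and size factors from DESeq2 1.42.0 as alternatives. Pseudogenes were compared with M21 coding transcripts by blastn 2.17.0 (E-value 1e-10).

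Members, gene lists and tests were chosen with earlier results of these data known. Loci are named by fixed criteria. Among those seen in both libraries these are the 10 of highest mean level and the 8 spliced ones with most reads. They also include, for each library, the 3 with most reads among loci absent from the other, and the 3 largest log2 ratios past the threshold in each direction. The printed loci, Gapdh copies and coding-gene continuations were chosen after their values were seen. RefSeq windows (GRCm38.p6) gave locus and promoter sequences, and M21 transcripts gave those of Gapdh and its copies.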

Additional observations from a re-analysis of the deposited data

How the results depend on the processing

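Over 9 results, 59 values under other settings were computed beside 10 with a library left out, and 14 moved by more than the SD of the libraries (for the count of loci, over 1.5 times). That SD is wide with n = 2: intergenic reads, 6152 CPM as a mean, were 3604 CPM with models of 5 or more reads and 3898 CPM without loci that share a gene boundary and are not among the 14. The median distance to the nearest gene, 2927 bp as a mean of the libraries, was 2419 bp with models of 2 or more reads, 2140 bp with 5 or more, 5166 bp with protein-coding genes only, 9860 bp with genes on the same strand only and 4356 bp without loci that share a gene boundary. The share within 10 kb, 75.47%, was 79.36%, 81.45%, 61.27%, 50.21% and 70.4% in the same order. The recurring share of intron chains, 19.95%, was 44.53% with 2 or more reads and 39.68% with 5 or more. For recurring shares the SD of the libraries reflects unequal numbers of loci or chains, so the rule does not measure replicate spread there. The count of loci that differed between the libraries, 122, was 73 with a minimum of 20 reads, where fewer loci were tested, and 77 without loci that share a gene boundary. That last setting, leaving out pseudogene continuations, and classing loci by a library's own models were chosen after seeing the data. Beyond fewer features tested, the cause of these moves was not tested. With either library left out, the reads per library ranged from 2710 to 9593 CPM, and recurrence has no value. No paired analysis was possible because there is 1 group. Most loci have 1 read, so absence from a library was often not detectable at this depth.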

Other observations

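Intergenic models on chromosome Y were as many in both libraries, 19 and 20, but held 285 reads in replicate 1 and 68 in replicate 2. The locus at chrY:67834525-67839300 accounted for 218 and 21 of them. The mitochondrial chromosome had 1 model in replicate 1 and 0 in replicate 2, and unplaced or unlocalised scaffolds had 6 and 10.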
